A study of Mus musculus with 17 samples.

Results

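The list described here holds 40 genes that give epithelial cells their keratin filaments, cell junctions and identity: 6 keratins, 3 surface mucin and adhesion genes, 8 tight junction genes, 6 desmosome and plakin genes, 6 transcription factors, 2 splicing factors, 4 surface proteases and their inhibitors, and 5 trafficking and other genes. Members were chosen by symbol, and all 40 were among the 25124 genes of each of the 3 deposited tables. Every member varied in the 2 tumour tables, while 35 did in the Id3 table, because Krt20, Cldn4, Elf3, Esrp1 and Sptssb stood at 0 in every sample there.

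The samples were bulk RNA of Kupffer cells (KCs), macrophages that reside in liver sinusoids, sorted from mice as Tim4+CD206+ or Tim4+CD206hi cells and sequenced. In each of these subsets, 3 samples came from untreated tumour-free mice and 3 from mice that carried KPC tumour cells, a pancreatic cancer line, for 2 weeks after injection into the portal vein. The remaining table holds KCs of 3 Id3f/f mice, which carry floxed Id3 without Cre, and of 2 Clec4fCreId3f/f mice, in which Cre under the KC gene Clec4f deletes Id3; both groups were untreated and tumour-free. The labels give no strain, age or sex. The sort kept cells positive for the leukocyte antigen CD45, which epithelial cells lack. Whether RNA of other cells came along was not tested.

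Simple epithelia, such as those of the pancreatic duct, the bile duct and the gut, build intermediate filaments from paired acidic and basic keratins, anchor them in desmosomes and seal the space between cells with tight junctions of claudins and occludin. Transcription factors of the ETS and grainyhead-like families and the splicing regulators Esrp1 and Esrp2 maintain this state. Keratin filaments and tight junctions are typical of epithelia. KCs are macrophages and take up particles, cell fragments and dying cells from the blood of the liver.

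The samples read as KCs on the deposited log2 scale, which the authors normalized within each table and which shrinks differences at low read numbers. Clec4f, the lectin that defines KCs, had log2 values of 19.65, 19.18 and 19.02 in tumour-free and 18.48, 18.47 and 18.52 in tumour-bearing Tim4+CD206+ KCs, and of 18.21, 18.20 and 18.45 in tumour-free and 17.78, 17.60 and 17.76 in tumour-bearing Tim4+CD206hi KCs. In the Id3 table Clec4f stood at 17.59, 17.62 and 17.71 in Id3f/f and 16.13 and 16.11 in Clec4fCreId3f/f KCs, lower in both deleted samples (log2 fold change -1.52 ± 0.06 (SE), adjusted p 1.80e-06). Mrc1, which encodes CD206, stood at 13.18, 12.40 and 12.83 in tumour-free Tim4+CD206+ and at 15.82, 15.03 and 16.19 in tumour-free Tim4+CD206hi KCs, in tables that were normalized separately. Of 10 KC marker genes, none was at 0 in any table. Id3 stood at 12.58, 12.46 and 12.82 in Id3f/f and 9.83 and 9.82 in Clec4fCreId3f/f KCs, a fall in both deleted samples (log2 fold change -2.80 ± 0.11 (SE), adjusted p 1.41e-06). In the same table Xist, which silences an X chromosome in female cells, read 6.38, 6.33 and 6.36 against 9.84 and 9.76, and Ddx3y of the Y chromosome read 9.46, 9.43 and 9.43 against 7.0 and 7.01. The 3 Id3f/f samples were thus low and the 2 deleted samples high in Xist, and sex and Id3 genotype cannot be told apart in this table.

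In both subsets the least alike samples of a group were tumour-free. Across the genes tested, the lowest correlation within a tumour-free group was 0.964 in Tim4+CD206+ KCs, of replicates 1 and 2, and 0.937 in Tim4+CD206hi KCs, of replicates 2 and 3, against 0.981 and 0.993 in the tumour-bearing groups. Tumour-free replicates 1 and 3 of Tim4+CD206+ KCs correlated at 0.988. In Tim4+CD206hi KCs tumour-free replicate 3 was the lowest of its group for 18 of 38 members tested, and replicate 2 was the highest of its group for 24 in tumour-free and for 22 in tumour-bearing samples. There, tumour-free replicate 2 exceeded the other tumour-free samples by more than 1 log2 unit for Krt7, Tjp3, Lsr, Ppl, Spint1 and St14. In Tim4+CD206+ KCs it did so for Tjp3 and Spint1, and tumour-bearing replicate 2 did so for Tjp3, Lsr and Spint1. Tumour-free replicate 3 exceeded its group by more than 1 for Lgals4 in Tim4+CD206+ and for Ap1m2 in Tim4+CD206hi KCs. Tumour-bearing replicate 2 of Tim4+CD206hi KCs did so for Prss8 and Rab25. Printed tests whose call changes without tumour-free replicate 2 are given both ways. The deposited values, summed on the linear scale, came to 34080000 to 39680000 per sample in Tim4+CD206+, 32640000 to 35100000 in Tim4+CD206hi and 21820000 to 24040000 in Id3 samples.

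Against the label of epithelial identity, some members were high in tumour-free KCs. Jup, the highest per kilobase of exon, encodes plakoglobin, which desmosomes share with adherens junctions. It had log2 values of 11.86, 12.90 and 12.47 in tumour-free and 11.96, 12.69 and 12.16 in tumour-bearing Tim4+CD206+ KCs, and of 12.44, 12.39 and 10.77 in tumour-free and 12.74, 12.69 and 12.71 in tumour-bearing Tim4+CD206hi KCs. In the Id3 table it read 11.06, 11.18 and 10.94 in Id3f/f KCs. Jup was thus high in every sample with and without tumour, and per kilobase of exon its tumour-free mean lay at the 94.3 percentile of all genes in Tim4+CD206+, the 92.2 percentile in Tim4+CD206hi and the 90.8 percentile in Id3f/f KCs. No other member reached the 90 percentile in the tumour-free samples of any table, and Spint2 came next in Tim4+CD206hi and Id3f/f KCs.

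With tumour, the members together came to several times their tumour-free level in both subsets. Their linear values summed to 0.0194, 0.0332 and 0.0282% of all genes in the tumour-free and 0.156, 0.154 and 0.141% in the tumour-bearing Tim4+CD206+ samples, and every tumour-bearing sample was far above every tumour-free sample. The sums were 0.0301, 0.0340 and 0.0156% and 0.230, 0.245 and 0.228% in Tim4+CD206hi KCs, again without overlap. The ratio of the mean shares was 5.58 in Tim4+CD206+ and 8.81 in Tim4+CD206hi KCs, and without Jup it was 11.9 and 14.99. Jup made up 31.8 to 67.6% of the sum in tumour-free samples. Krt8 made up the largest part in all tumour-bearing samples, with 22.8 to 25.8%, in values not divided by length. Per kilobase of exon, Krt19 lay above Krt8 in tumour-bearing Tim4+CD206+ KCs. In these bulk samples, more cells that carry such RNA and more of it per cell cannot be told apart.

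**Figure D1:**
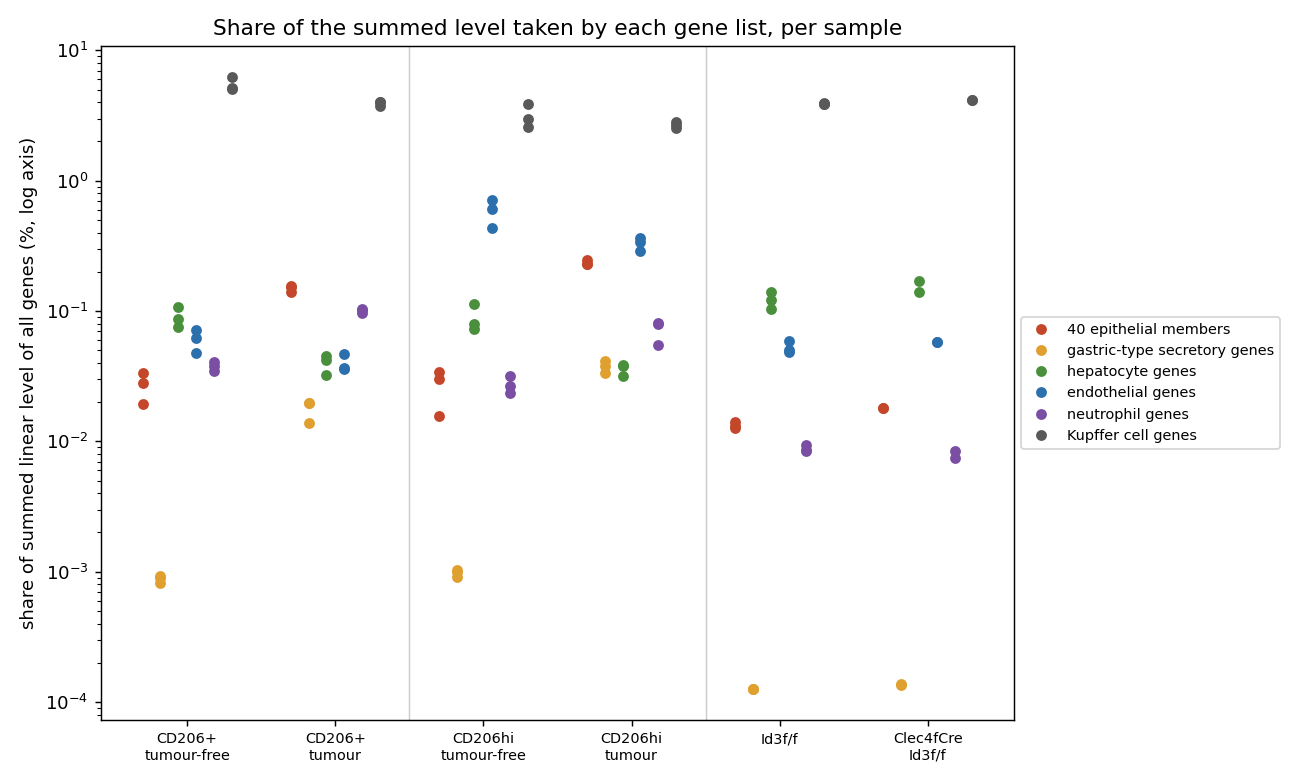
Summed linear value of each gene list as percent of all genes in every sample, on a log axis, for the members and 5 marker lists. For the members, the tumour-bearing samples of both subsets lie between 0.141 and 0.245% and the tumour-free samples between 0.0156 and 0.0340%.

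Called means an adjusted p under 0.05 by limma over all genes tested in a table, and log2 fold changes are tumour-bearing minus tumour-free means of 3 samples each. In Tim4+CD206+ KCs 35 of 40 members were tested and 17 were higher, beside 2.55% of 13233 genes. In Tim4+CD206hi KCs 38 were tested and 30 were higher, beside 5.21% of 14561 genes, and 28 of 36 were higher when Marveld3 and Ovol1, which passed the filter through the tumour-bearing samples alone, are left out. None was called lower by limma in either subset, beside 0.998% and 2.03% of all genes. None was lower at an unadjusted p under 0.05 either. The median log2 fold change was 1.11 over the members and 0.02 over all genes tested in Tim4+CD206+, and 3.04 and 0.03 in Tim4+CD206hi KCs. Each tumour-bearing sample was above each tumour-free sample for 25 of 35 members in Tim4+CD206+ KCs (12.9% of all genes) and for 37 of 38 in Tim4+CD206hi KCs (15.6% of all genes).

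These counts cover the members that passed the filter, not all members. Marveld3 passed the filter on low values through the tumour-bearing samples alone in Tim4+CD206+ KCs as well. Without such members the median log2 fold change was 1.11 over 34 members in Tim4+CD206+ and 3.16 over 36 in Tim4+CD206hi KCs, and the groups were apart for 24 and 35 of them. This need not remove every such member, since the scale shrinks differences at low read numbers and tumour-bearing samples may draw up tumour-free values. Tumour-free Cgn read 4.60, 4.72 and 4.72 in Tim4+CD206hi KCs, where it was called, and 2.28, 2.31 and 2.24 in Tim4+CD206+ KCs. How many members passed in this way was not tested. With no filter all 40 members were tested, and 14 were higher in Tim4+CD206+ (1.46% of all genes) and 28 in Tim4+CD206hi KCs (3.67% of all genes), with median log2 fold changes of 0.80 and 2.95. Without tumour-free replicate 2, 15 members were higher in Tim4+CD206+ (3.23% of all genes) and 34 in Tim4+CD206hi KCs (17.6% of all genes). With the replicate number as a block, 19 were higher in Tim4+CD206+ KCs (4.66% of all genes), which added Lsr (adjusted p 0.00834) and St14 (adjusted p 0.0457). Centring each sample on its median moved the median log2 fold change of all genes in Tim4+CD206hi KCs by -0.16, and quantile normalization by -0.14.

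The 17 members higher in both subsets were Krt7, Krt8, Krt18, Krt19, Krt20, Krt23, Muc1, Epcam, Cdh1, Cldn7, Dsg2, Evpl, Elf3, Ehf, Spint1, Lgals4 and Sptssb. Called in Tim4+CD206hi KCs but not in Tim4+CD206+ KCs were Ocln, Lsr, Dsp, Sox9, Esrp2, St14, Rab25 and Sfn, and with them Marveld3 and Ovol1, whose tests are given with no filter. Cgn, Ppl and Esrp1 were called in Tim4+CD206hi KCs and did not pass the filter in Tim4+CD206+ KCs. The 8 called in neither were Cldn3, Tjp3, Jup, Pkp3, Grhl1, Spint2, Prss8 and Ap1m2, and Cldn4 and Grhl2 were tested in neither. Whether the subsets differ was not tested, since their tables were normalized separately.

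**Figure D2:**
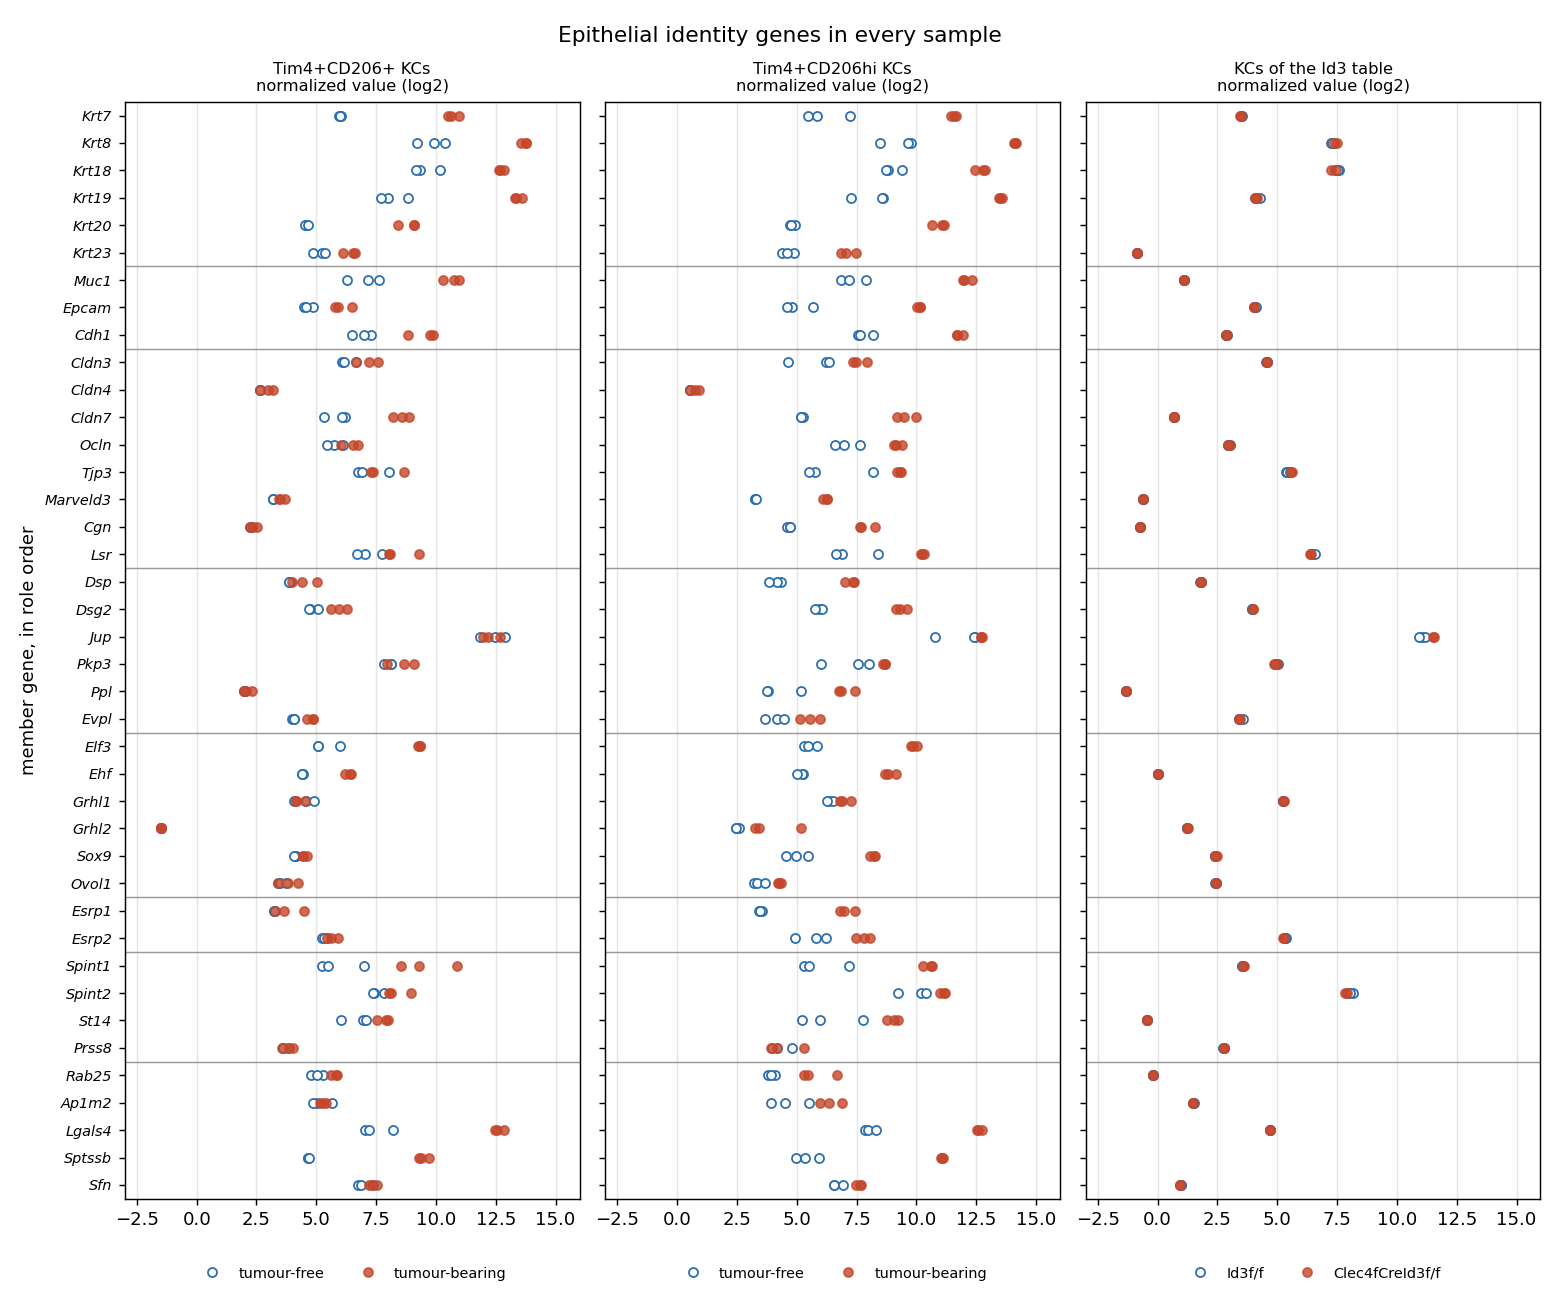
Deposited log2 value of chosen members in every sample, tumour-free and tumour-bearing, for both KC subsets and the Id3 table. Krt19 and Sptssb are separated by tumour in both subsets, whereas Jup is high in every sample.

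All 6 keratins rose with tumour in both subsets, with a median log2 fold change of 4.07 in Tim4+CD206+ and 5.09 in Tim4+CD206hi KCs, and their summed share of all genes was up 16.5-fold and 26.3-fold. Krt8 and Krt18 form the filament pair of simple epithelia and are also the keratins of hepatocytes. Krt8 read 9.92, 9.20 and 10.37 in tumour-free and 13.75, 13.76 and 13.53 in tumour-bearing Tim4+CD206+ KCs (log2 fold change 3.85 ± 0.28 (SE), adjusted p 0.000273). It read 9.77, 9.63 and 8.47 in tumour-free and 14.11, 14.16 and 14.07 in tumour-bearing Tim4+CD206hi KCs (log2 fold change 4.83 ± 0.34 (SE), adjusted p 0.000200). All tumour-bearing samples were several units above all tumour-free samples, which spread most in Tim4+CD206hi KCs. Krt18, its partner, read 9.32, 9.19 and 10.18 in tumour-free and 12.85, 12.66 and 12.63 in tumour-bearing Tim4+CD206+ KCs (log2 fold change 3.16 ± 0.27 (SE), adjusted p 0.000526). Krt18 read 8.81, 9.41 and 8.71 against 12.85, 12.78 and 12.46 in Tim4+CD206hi KCs (log2 fold change 3.72 ± 0.23 (SE), adjusted p 0.000131). The groups lay far apart in both subsets for Krt18 as well. Mouse Krt18 has processed pseudogenes, and how reads that match several copies were counted is not given.

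Krt7 and Krt19 are the keratins of ducts, bile ducts included. Krt7 read 6.02, 5.94 and 5.98 in tumour-free and 10.61, 10.97 and 10.49 in tumour-bearing Tim4+CD206+ KCs (log2 fold change 4.71 ± 0.22 (SE), adjusted p 4.27e-05). Krt7 read 5.83, 7.21 and 5.49 against 11.59, 11.63 and 11.43 in Tim4+CD206hi KCs (log2 fold change 5.37 ± 0.43 (SE), adjusted p 0.000387, and a rise of 5.89 without tumour-free replicate 2). The tumour-bearing samples were closely grouped and the tumour-free samples lay far below them, with replicate 2 the highest of these in Tim4+CD206hi KCs. Krt19 read 7.98, 7.70 and 8.85 in tumour-free and 13.61, 13.32 and 13.35 in tumour-bearing Tim4+CD206+ KCs (log2 fold change 5.25 ± 0.29 (SE), adjusted p 9.56e-05). Krt19 read 7.25, 8.62 and 8.58 against 13.50, 13.57 and 13.43 in Tim4+CD206hi KCs (log2 fold change 5.36 ± 0.37 (SE), adjusted p 0.000182). No sample of either group came near the other group, and Krt19 had the largest log2 fold change of all members in Tim4+CD206+ KCs.

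Krt20 belongs to the epithelium of gut and bladder, and Krt23 is an acidic keratin of gut and ducts. Krt20 read 4.57, 4.53 and 4.65 in tumour-free and 9.10, 8.39 and 9.10 in tumour-bearing Tim4+CD206+ KCs (log2 fold change 4.28 ± 0.27 (SE), adjusted p 0.000156). Krt20 read 4.70, 4.93 and 4.74 against 11.14, 10.65 and 11.08 in Tim4+CD206hi KCs (log2 fold change 6.16 ± 0.22 (SE), adjusted p 3.65e-05). Tumour-free values were low and close together in both subsets, and Krt20 had the largest log2 fold change of all members in Tim4+CD206hi KCs. Krt23 read 5.24, 4.85 and 5.37 in tumour-free and 6.60, 6.14 and 6.54 in tumour-bearing Tim4+CD206+ KCs (log2 fold change 1.27 ± 0.24 (SE), adjusted p 0.0282). Krt23 read 4.86, 4.37 and 4.60 against 7.46, 7.05 and 6.83 in Tim4+CD206hi KCs (log2 fold change 2.50 ± 0.25 (SE), adjusted p 0.00106). The groups did not overlap, with a smaller distance than for the other keratins. The call of Krt23 in Tim4+CD206+ KCs was lost without tumour-free replicate 1 or 3 or tumour-bearing replicate 1 or 3 (adjusted p 0.0648 to 0.112) and with no filter.

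The 3 surface mucin and adhesion genes rose in both subsets, with median log2 fold changes of 2.58 and 4.79. Muc1, a transmembrane mucin of the apical surface, read 7.15, 6.30 and 7.63 in tumour-free and 10.96, 10.28 and 10.76 in tumour-bearing Tim4+CD206+ KCs (log2 fold change 3.64 ± 0.36 (SE), adjusted p 0.00113). It read 6.86, 7.18 and 7.87 in tumour-free and 11.99, 12.33 and 11.96 in tumour-bearing Tim4+CD206hi KCs (log2 fold change 4.79 ± 0.29 (SE), adjusted p 0.000108). Both groups were apart by more than their spread. Cdh1, which encodes E-cadherin, read 7.30, 6.98 and 6.48 in tumour-free and 9.89, 8.83 and 9.77 in tumour-bearing Tim4+CD206+ KCs (log2 fold change 2.58 ± 0.35 (SE), adjusted p 0.00582). Cdh1 read 8.19, 7.57 and 7.66 against 11.68, 11.70 and 11.96 in Tim4+CD206hi KCs (log2 fold change 3.97 ± 0.22 (SE), adjusted p 9.28e-05). Tumour-bearing replicate 2 was the lowest of its group in Tim4+CD206+ KCs but still above all tumour-free samples.

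Epcam, the epithelial cell adhesion molecule, read 4.48, 4.88 and 4.55 in tumour-free and 5.78, 6.51 and 5.90 in tumour-bearing Tim4+CD206+ KCs (log2 fold change 1.43 ± 0.25 (SE), adjusted p 0.0204). It read 4.78, 5.69 and 4.59 in tumour-free and 10.03, 10.15 and 10.13 in tumour-bearing Tim4+CD206hi KCs (log2 fold change 5.08 ± 0.31 (SE), adjusted p 0.000121). The tumour-free levels were low in both subsets, while the tumour-bearing samples were modestly higher in Tim4+CD206+ KCs and far higher in Tim4+CD206hi KCs. Epcam is the member whose log2 fold changes differed by more than 3 between the subsets, a difference that was not tested. The call of Epcam in Tim4+CD206+ KCs was lost without tumour-free replicate 1 or 3 or tumour-bearing replicate 2 or 3 (adjusted p 0.0508 to 0.0872).

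Of the tight junction genes, 1 of 6 tested rose in Tim4+CD206+ KCs and 5 of 7 in Tim4+CD206hi KCs (4 of 6 without Marveld3). Their median log2 fold changes were 0.76 and 2.95, and 0.86 and 2.87 without Marveld3. Claudins form the strands of the junction. Cldn7 read 6.22, 5.32 and 6.08 in tumour-free and 8.19, 8.86 and 8.60 in tumour-bearing Tim4+CD206+ KCs (log2 fold change 2.68 ± 0.32 (SE), adjusted p 0.00303). It read 5.18, 5.27 and 5.19 in tumour-free and 9.20, 9.98 and 9.47 in tumour-bearing Tim4+CD206hi KCs (log2 fold change 4.34 ± 0.25 (SE), adjusted p 0.000100). Cldn7 was separated by tumour in both subsets. Cldn3 read 6.08, 6.14 and 6.65 in tumour-free and 6.68, 7.58 and 7.19 in tumour-bearing Tim4+CD206+ KCs (difference 0.86 ± 0.31 (SE), adjusted p 0.196). Cldn3 read 6.21, 6.37 and 4.62 against 7.35, 7.93 and 7.49 in Tim4+CD206hi KCs (difference 1.86 ± 0.47 (SE), adjusted p 0.0637). Its tumour-bearing samples were above its tumour-free samples in both subsets, by little in Tim4+CD206+ KCs. Cldn3 was not called, but passed in Tim4+CD206hi KCs without tumour-free replicate 2 (adjusted p 0.0180) or 3 (adjusted p 0.0266). It also passed there with the replicate block (adjusted p 0.0344) and with median centring.

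Cldn4, which passed the filter in neither subset, read 2.64, 2.64 and 2.64 in tumour-free and 2.64, 2.97 and 3.21 in tumour-bearing Tim4+CD206+ KCs. It read 0.55, 0.55 and 0.55 in tumour-free and 0.75, 0.91 and 0.55 in tumour-bearing Tim4+CD206hi KCs. Only single tumour-bearing samples were above the common low value of Cldn4, namely replicates 2 and 3 in Tim4+CD206+ and replicates 1 and 2 in Tim4+CD206hi KCs. Ocln, which encodes the strand protein occludin, read 6.12, 5.73 and 5.46 in tumour-free and 6.05, 6.76 and 6.51 in tumour-bearing Tim4+CD206+ KCs (difference 0.67 ± 0.28 (SE), adjusted p 0.269). Ocln read 6.59, 7.66 and 6.96 against 9.39, 9.13 and 9.08 in Tim4+CD206hi KCs (log2 fold change 2.13 ± 0.30 (SE), adjusted p 0.00588). The groups overlapped in Tim4+CD206+ KCs and were apart in Tim4+CD206hi KCs, where Ocln rose.

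Tjp3 encodes the scaffold ZO-3, and Lsr the angulin that marks the corners where cells meet. Tjp3 read 6.73, 8.04 and 6.90 in tumour-free and 7.38, 8.68 and 7.29 in tumour-bearing Tim4+CD206+ KCs (difference 0.56 ± 0.47 (SE), adjusted p 0.627, and 0.97 without tumour-free replicate 2). Tjp3 read 5.77, 8.20 and 5.50 against 9.31, 9.37 and 9.18 in Tim4+CD206hi KCs (difference 2.80 ± 0.67 (SE), adjusted p 0.0524). Replicate 2 was high in both groups of Tim4+CD206+ KCs, which overlapped, and in tumour-free Tim4+CD206hi KCs. Without tumour-free replicate 2, Tjp3 was called in Tim4+CD206hi KCs (log2 fold change 3.65, adjusted p 0.000177). It was also called there with the replicate block (adjusted p 0.0213), median centring and quantile normalization. Lsr read 7.05, 7.76 and 6.69 in tumour-free and 8.04, 9.28 and 8.10 in tumour-bearing Tim4+CD206+ KCs (difference 1.31 ± 0.41 (SE), adjusted p 0.144, and 0.00834 with the replicate block). Lsr read 6.88, 8.39 and 6.65 against 10.20, 10.33 and 10.24 in Tim4+CD206hi KCs (log2 fold change 2.95 ± 0.44 (SE), adjusted p 0.00759, and a rise of 3.50 without tumour-free replicate 2). Every tumour-bearing sample of both subsets was above every tumour-free sample for Lsr, with replicate 2 the highest of each tumour-free group.

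Marveld3, a membrane protein of the junction, read 3.21, 3.19 and 3.19 in tumour-free and 3.43, 3.50 and 3.69 in tumour-bearing Tim4+CD206+ KCs (difference 0.34 ± 0.12 (SE), adjusted p 0.276 with no filter). It read 3.25, 3.26 and 3.28 in tumour-free and 6.11, 6.26 and 6.27 in tumour-bearing Tim4+CD206hi KCs (log2 fold change 2.95 ± 0.19 (SE), adjusted p 0.000274 with no filter). Its tumour-free values lay within 0.05 of each other in both tables, so the rise in Tim4+CD206hi KCs started from the lowest value of the gene and is no fold over a measured level. Cgn, the cytoplasmic adaptor cingulin, did not pass the filter in Tim4+CD206+ KCs and read 2.28, 2.31 and 2.24 in tumour-free and 2.30, 2.24 and 2.50 in tumour-bearing Tim4+CD206+ KCs. Cgn read 4.60, 4.72 and 4.72 against 7.64, 8.27 and 7.69 in Tim4+CD206hi KCs (log2 fold change 3.19 ± 0.24 (SE), adjusted p 0.000263). The groups of Cgn overlapped in the former subset and were far apart in the latter.

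Of the desmosome and plakin genes, 2 of 5 tested rose in Tim4+CD206+ and 4 of 6 in Tim4+CD206hi KCs, with median log2 fold changes of 0.61 and 2.12. Dsp encodes desmoplakin, which ties keratin filaments to the junction. Dsp read 3.88, 3.87 and 3.86 in tumour-free and 5.04, 4.41 and 4.0 in tumour-bearing Tim4+CD206+ KCs (difference 0.61 ± 0.25 (SE), adjusted p 0.254). It read 4.36, 4.16 and 3.85 in tumour-free and 7.01, 7.38 and 7.35 in tumour-bearing Tim4+CD206hi KCs (log2 fold change 3.12 ± 0.22 (SE), adjusted p 0.000217). All tumour-bearing samples were above the tumour-free samples, narrowly for replicate 3 of Tim4+CD206+ KCs, whose 3 tumour-free values of Dsp were near-identical. Dsg2, a desmosomal cadherin, read 5.08, 4.75 and 4.72 in tumour-free and 6.30, 5.96 and 5.60 in tumour-bearing Tim4+CD206+ KCs (log2 fold change 1.10 ± 0.24 (SE), adjusted p 0.0470). Dsg2 read 5.95, 6.07 and 5.77 against 9.14, 9.32 and 9.59 in Tim4+CD206hi KCs (log2 fold change 3.42 ± 0.21 (SE), adjusted p 0.000131). Its groups were apart in both subsets, but in Tim4+CD206+ KCs Dsg2 lost its call without any 1 of the 6 samples (adjusted p 0.0548 to 0.158), and also with no filter, median centring and quantile normalization, and kept it in 2 of 12 alternatives.

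Evpl and Ppl encode the plakins envoplakin and periplakin, which link filaments to the membrane. Evpl read 3.99, 4.08 and 4.07 in tumour-free and 4.88, 4.87 and 4.61 in tumour-bearing Tim4+CD206+ KCs (log2 fold change 0.74 ± 0.15 (SE), adjusted p 0.0405). Evpl read 4.16, 4.46 and 3.66 against 5.54, 5.14 and 5.97 in Tim4+CD206hi KCs (log2 fold change 1.46 ± 0.30 (SE), adjusted p 0.0282). Its groups did not overlap in either subset. The call of Evpl in Tim4+CD206+ KCs was lost without any 1 of the 6 samples (adjusted p 0.0523 to 0.147), and also with no filter, no trend, median centring and quantile normalization, and was kept in 1 of 12 alternatives. Evpl lost its Tim4+CD206hi call without tumour-free replicate 1 or 3 or tumour-bearing replicate 1 or 3 (adjusted p 0.0586 to 0.111), with the replicate block and with quantile normalization. Ppl did not pass the filter in Tim4+CD206+ KCs and read 1.97, 2.03 and 1.97 in tumour-free and 1.99, 2.05 and 2.30 in tumour-bearing Tim4+CD206+ KCs. Ppl read 3.82, 5.17 and 3.75 against 7.44, 6.85 and 6.77 in Tim4+CD206hi KCs (log2 fold change 2.78 ± 0.42 (SE), adjusted p 0.00767, and a rise of 3.24 without tumour-free replicate 2). Ppl was within 0.05 of its lowest value in 3 of the 6 Tim4+CD206+ samples. In Tim4+CD206hi KCs it was higher in every tumour-bearing than in every tumour-free sample.

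Pkp3 is a plakophilin, an armadillo protein of the desmosomal plaque like Jup. Pkp3 read 8.12, 7.82 and 8.11 in tumour-free and 8.67, 9.07 and 7.97 in tumour-bearing Tim4+CD206+ KCs (difference 0.56 ± 0.31 (SE), adjusted p 0.419). Pkp3 read 7.56, 8.00 and 6.03 against 8.70, 8.71 and 8.59 in Tim4+CD206hi KCs (difference 1.47 ± 0.48 (SE), adjusted p 0.137). The groups overlapped in Tim4+CD206+ KCs and were apart in Tim4+CD206hi KCs, where tumour-free replicate 3 was the lowest, and Pkp3 was called there without tumour-free replicate 2 (adjusted p 0.0223) or 3 (adjusted p 0.0452). Jup, with the values given above, was not called in Tim4+CD206+ KCs (difference -0.14 ± 0.29 (SE), adjusted p 0.885). Nor was Jup called in Tim4+CD206hi KCs (difference 0.85 ± 0.43 (SE), adjusted p 0.309), where tumour-free replicate 3 was more than 1 unit below the rest.

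Among the transcription factors, 2 of 5 tested rose in Tim4+CD206+ and 4 of 5 in Tim4+CD206hi KCs (3 of 4 without Ovol1). Their median log2 fold changes were 0.40 and 3.19, the latter 3.45 without Ovol1. Elf3 and Ehf are ETS factors of epithelia. Elf3 read 5.98, 5.09 and 5.09 in tumour-free and 9.31, 9.26 and 9.33 in tumour-bearing Tim4+CD206+ KCs (log2 fold change 3.92 ± 0.30 (SE), adjusted p 0.000336). It read 5.29, 5.86 and 5.49 in tumour-free and 9.79, 10.02 and 9.86 in tumour-bearing Tim4+CD206hi KCs (log2 fold change 4.35 ± 0.22 (SE), adjusted p 7.57e-05). The tumour-bearing samples were uniform and far above the tumour-free samples in both subsets. Ehf read 4.41, 4.44 and 4.41 in tumour-free and 6.22, 6.40 and 6.43 in tumour-bearing Tim4+CD206+ KCs (log2 fold change 1.93 ± 0.18 (SE), adjusted p 0.000926). Ehf read 5.27, 5.23 and 5.01 against 8.83, 9.14 and 8.70 in Tim4+CD206hi KCs (log2 fold change 3.72 ± 0.21 (SE), adjusted p 0.000100). Its groups were also apart in both subsets. Its tumour-free Tim4+CD206+ values lay at the lowest value of the gene, so that rise is no fold over a measured level.

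Sox9 acts in bile and pancreatic ducts. Sox9 read 4.12, 4.14 and 4.07 in tumour-free and 4.44, 4.62 and 4.45 in tumour-bearing Tim4+CD206+ KCs (difference 0.40 ± 0.14 (SE), adjusted p 0.203). Sox9 read 4.55, 5.46 and 4.96 against 8.22, 8.05 and 8.25 in Tim4+CD206hi KCs (log2 fold change 3.19 ± 0.27 (SE), adjusted p 0.000503). Tumour-bearing samples were above tumour-free samples in both subsets, by a small distance in Tim4+CD206+ KCs and by a large distance in Tim4+CD206hi KCs. Ovol1, a zinc finger transcription factor of epithelia, read 3.41, 3.47 and 3.73 in tumour-free and 3.41, 4.23 and 3.81 in tumour-bearing Tim4+CD206+ KCs (difference 0.28 ± 0.21 (SE), adjusted p 0.581). Ovol1 read 3.19, 3.33 and 3.67 against 4.33, 4.26 and 4.24 in Tim4+CD206hi KCs (log2 fold change 0.88 ± 0.19 (SE), adjusted p 0.0462 with no filter). The groups of Ovol1 overlapped in Tim4+CD206+ KCs and not in Tim4+CD206hi KCs, where it kept its call in 4 of 12 alternatives.

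Grhl1 and Grhl2 are grainyhead-like factors that activate junction genes. Grhl1 read 4.55, 4.90 and 4.07 in tumour-free and 4.53, 4.15 and 4.14 in tumour-bearing Tim4+CD206+ KCs (difference -0.23 ± 0.24 (SE), adjusted p 0.697). Grhl1 read 6.36, 6.51 and 6.26 against 7.28, 6.80 and 6.88 in Tim4+CD206hi KCs (difference 0.61 ± 0.22 (SE), adjusted p 0.170). Its groups overlapped in Tim4+CD206+ KCs and were narrowly apart in Tim4+CD206hi KCs. Grhl2 passed the filter in neither subset and read -1.50, -1.50 and -1.50 in tumour-free and -1.50, -1.47 and -1.50 in tumour-bearing Tim4+CD206+ KCs. Grhl2 read 2.45, 2.57 and 2.46 against 3.24, 5.19 and 3.41 in Tim4+CD206hi KCs. It was flat in all Tim4+CD206+ samples, while the Tim4+CD206hi tumour-bearing samples, replicate 2 most of all, were above the tumour-free samples.

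Esrp1 and Esrp2 direct the splicing pattern of epithelial cells. Esrp1 did not pass the filter in Tim4+CD206+ KCs and read 3.21, 3.27 and 3.22 in tumour-free and 3.28, 3.63 and 4.49 in tumour-bearing Tim4+CD206+ KCs. Esrp1 read 3.42, 3.55 and 3.46 against 6.97, 7.44 and 6.81 in Tim4+CD206hi KCs (log2 fold change 3.60 ± 0.22 (SE), adjusted p 0.000121). All tumour-bearing samples were above the tumour-free samples, by little in replicate 1 of Tim4+CD206+ KCs. Esrp2 read 5.24, 5.47 and 5.33 in tumour-free and 5.46, 5.89 and 5.62 in tumour-bearing Tim4+CD206+ KCs (difference 0.31 ± 0.21 (SE), adjusted p 0.513). Esrp2 read 5.81, 6.24 and 4.94 against 7.47, 7.81 and 8.06 in Tim4+CD206hi KCs (log2 fold change 2.12 ± 0.36 (SE), adjusted p 0.0135). Its groups overlapped in Tim4+CD206+ KCs and did not in Tim4+CD206hi KCs, where Esrp2 lost its call without tumour-free replicate 1 or tumour-bearing replicate 2 or 3 (adjusted p 0.0573 to 0.0666).

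Of the surface proteases and inhibitors, 1 of 4 rose in Tim4+CD206+ and 2 of 4 in Tim4+CD206hi KCs, with median log2 fold changes of 0.98 and 1.93. St14 encodes the membrane protease matriptase, and Spint1 and Spint2 encode Kunitz-type inhibitors of it. Spint1 read 5.26, 7.01 and 5.50 in tumour-free and 9.28, 10.87 and 8.56 in tumour-bearing Tim4+CD206+ KCs (log2 fold change 3.64 ± 0.64 (SE), adjusted p 0.0204, and a rise of 4.19 without tumour-free replicate 2). It read 5.31, 7.16 and 5.52 in tumour-free and 10.60, 10.63 and 10.26 in tumour-bearing Tim4+CD206hi KCs (log2 fold change 4.50 ± 0.48 (SE), adjusted p 0.00155, and a rise of 5.08 without tumour-free replicate 2). Tumour-free replicate 2 was the highest of its group in both subsets and still below every tumour-bearing sample. The call of Spint1 in Tim4+CD206+ KCs was lost without tumour-free replicate 1 or 3 or tumour-bearing replicate 1 or 2 (adjusted p 0.0512 to 0.0903).

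Spint2 read 7.40, 7.83 and 7.38 in tumour-free and 8.04, 8.96 and 8.14 in tumour-bearing Tim4+CD206+ KCs (difference 0.84 ± 0.31 (SE), adjusted p 0.208). Spint2 read 10.17, 10.41 and 9.21 against 10.97, 11.17 and 11.18 in Tim4+CD206hi KCs (difference 1.18 ± 0.31 (SE), adjusted p 0.0746). Groups were apart by less than the range within the tumour-free samples in Tim4+CD206hi KCs. Spint2 was called there without tumour-free replicate 2 (adjusted p 0.0151) or 3 (adjusted p 0.0200), and with quantile normalization. St14 read 6.05, 6.95 and 7.06 in tumour-free and 7.91, 7.98 and 7.54 in tumour-bearing Tim4+CD206+ KCs (difference 1.12 ± 0.32 (SE), adjusted p 0.116, and 0.0457 with the replicate block). St14 read 5.98, 7.79 and 5.20 against 8.75, 9.23 and 9.05 in Tim4+CD206hi KCs (log2 fold change 2.69 ± 0.61 (SE), adjusted p 0.0430, and a rise of 3.42 without tumour-free replicate 2). Its tumour-bearing samples were above its tumour-free samples in both subsets, and in Tim4+CD206hi KCs St14 lost its call without tumour-free replicate 1 or 3 or any tumour-bearing replicate (adjusted p 0.0703 to 0.164), and also with no filter and a stricter filter. Prss8, the membrane protease prostasin, read 3.81, 3.59 and 3.62 in tumour-free and 3.58, 3.87 and 4.02 in tumour-bearing Tim4+CD206+ KCs (difference 0.15 ± 0.15 (SE), adjusted p 0.700). Prss8 read 4.17, 3.97 and 4.78 against 4.17, 5.32 and 3.94 in Tim4+CD206hi KCs (difference 0.17 ± 0.40 (SE), adjusted p 0.827). Prss8 was the single tested member whose groups overlapped in both subsets.

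Of the remaining genes, 2 of 5 rose in Tim4+CD206+ and 4 of 5 in Tim4+CD206hi KCs, with median log2 fold changes of 0.75 and 1.89. Lgals4 encodes galectin-4, a lectin of gut epithelium. Lgals4 read 7.03, 7.19 and 8.20 in tumour-free and 12.83, 12.48 and 12.55 in tumour-bearing Tim4+CD206+ KCs (log2 fold change 5.15 ± 0.31 (SE), adjusted p 0.000123). Lgals4 read 7.84, 7.98 and 8.30 against 12.55, 12.74 and 12.55 in Tim4+CD206hi KCs (log2 fold change 4.58 ± 0.18 (SE), adjusted p 3.65e-05). The groups lay far apart in both subsets, and Lgals4 was the 1 member of 35 tested in both whose log2 fold change was not larger in Tim4+CD206hi KCs. Mice carry the near-identical gene Lgals6, and how reads shared with it were counted is not given. Sptssb, a small subunit of the enzyme that starts sphingolipid synthesis, read 4.67, 4.64 and 4.68 in tumour-free and 9.38, 9.29 and 9.69 in tumour-bearing Tim4+CD206+ KCs (log2 fold change 4.79 ± 0.23 (SE), adjusted p 4.27e-05). Sptssb read 4.95, 5.33 and 5.91 against 11.04, 11.12 and 11.05 in Tim4+CD206hi KCs (log2 fold change 5.67 ± 0.27 (SE), adjusted p 6.33e-05). Its tumour-free Tim4+CD206+ values lay within 0.05 of the lowest, so that rise is no fold over a measured level.

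Rab25 is a small GTPase of apical recycling, and Ap1m2 a subunit of the epithelial sorting adaptor. Rab25 read 5.27, 4.77 and 5.03 in tumour-free and 5.62, 5.84 and 5.86 in tumour-bearing Tim4+CD206+ KCs (difference 0.75 ± 0.21 (SE), adjusted p 0.106). Rab25 read 3.80, 4.07 and 3.92 against 5.31, 6.69 and 5.47 in Tim4+CD206hi KCs (log2 fold change 1.89 ± 0.37 (SE), adjusted p 0.0237). Its groups were apart in both subsets, and in Tim4+CD206hi KCs Rab25 lost its call without tumour-free replicate 1 (adjusted p 0.103) or 3 (adjusted p 0.0614). Ap1m2 read 5.02, 4.85 and 5.64 in tumour-free and 5.14, 5.30 and 5.40 in tumour-bearing Tim4+CD206+ KCs (difference 0.11 ± 0.25 (SE), adjusted p 0.890). Ap1m2 read 3.91, 4.50 and 5.51 against 5.95, 6.88 and 6.34 in Tim4+CD206hi KCs (difference 1.75 ± 0.44 (SE), adjusted p 0.0603). Its groups overlapped in Tim4+CD206+ KCs and not in Tim4+CD206hi KCs. Ap1m2 was called there without tumour-free replicate 3 (adjusted p 0.0180) and with the replicate block (adjusted p 0.0307). Sfn, the epithelial 14-3-3 protein stratifin, read 7.37, 6.73 and 6.85 in tumour-free and 7.55, 7.20 and 7.33 in tumour-bearing Tim4+CD206+ KCs (difference 0.38 ± 0.26 (SE), adjusted p 0.541). Sfn read 6.55, 6.55 and 6.92 against 7.68, 7.46 and 7.66 in Tim4+CD206hi KCs (log2 fold change 0.92 ± 0.21 (SE), adjusted p 0.0437). Its groups overlapped in Tim4+CD206+ KCs alone, and in Tim4+CD206hi KCs Sfn lost its call without tumour-free replicate 1 or any tumour-bearing replicate (adjusted p 0.125 to 0.219), and also with no filter, a stricter filter, the replicate block, median centring and quantile normalization, and kept it in 3 of 12 alternatives.

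Some members beside Jup had a high level in tumour-free KCs. Per kilobase of exon, the highest tumour-free means after Jup, ranked among all genes, were those of Krt18 (87.4 percentile), Krt8 (86.6) and Krt19 (78.9) in Tim4+CD206+ KCs. In Tim4+CD206hi KCs they were Spint2 (87.5), Krt18 (79.3) and Krt8 (78.8), and in Id3f/f KCs Spint2 (80.3), Krt18 (76.0) and Krt8 (71.2). With tumour, Krt8 reached the 98.3 percentile in Tim4+CD206+ and 99.2 in Tim4+CD206hi KCs.

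On the linear scale, the tumour-free background of a member ranged from a few percent of its tumour-bearing level to all of it. Krt19 had 2.79% in Tim4+CD206+ and 2.66% in Tim4+CD206hi KCs. Lgals4 had 3.00% and 4.22%. For Krt8 the shares were 7.28% and 3.79%, and for Krt18 11.8% and 7.73%. These keratins and Lgals4 thus had most of their level in the tumour-bearing samples. Among the highest shares were those of Grhl1 with 120% and 65.1%, Jup with 112% and 62.9%, and Prss8 with 89.5% and 83.6%.

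Set side by side, the log2 fold change was larger in Tim4+CD206hi than in Tim4+CD206+ KCs for 34 of 35 members tested in both. It was larger by more than 1 for 19 and by more than 2 for Epcam, Tjp3, Marveld3, Dsp, Dsg2 and Sox9. The share of all genes with such differences was not counted, and the tables were normalized separately. Marveld3 and Ovol1, which passed the filter in Tim4+CD206hi KCs through the tumour-bearing samples alone, are among the 34. Marveld3, which did so in both subsets, is also among the 19, and its difference is no comparison of measured rises. Among the 35 members a log2 fold change over 3 was seen for 10 in Tim4+CD206+ KCs, and over all 38 tested in Tim4+CD206hi KCs for 19. The tables also differed by transcript length. Tumour-free levels in Tim4+CD206hi minus Tim4+CD206+ KCs had a median of -0.47 over genes of up to 1000 bases of exon and 1.74 over genes longer than 6000 bases, with a Spearman correlation of 0.451 between this difference and length across 12935 genes. For the difference in log2 fold change it was 0.104 across the same genes and 0.444 across the 35 members, and genes of 1 library are not independent. In Tim4+CD206+ and Tim4+CD206hi KCs in turn, limma called 8 and 10 of 14 listed members of 1000 to 2000 bases. It called 4 and 6 of 7 of 2000 to 3000 bases and 0 and 4 of 8 of 3000 to 4000. Of longer members it called 3 and 5 of 6 of 4000 to 6000 and 2 and 5 of 5 over 6000 bases. In the same order of length, 13, 7, 7, 5 and 3 of the listed members were tested in both subsets. The Tim4+CD206hi calls include Ovol1 (2000 to 3000 bases) and Marveld3 (3000 to 4000), which passed the filter through the tumour-bearing samples alone. No share of all genes called was counted by length. The part of length in the subset difference was not tested.

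**Figure D3:**
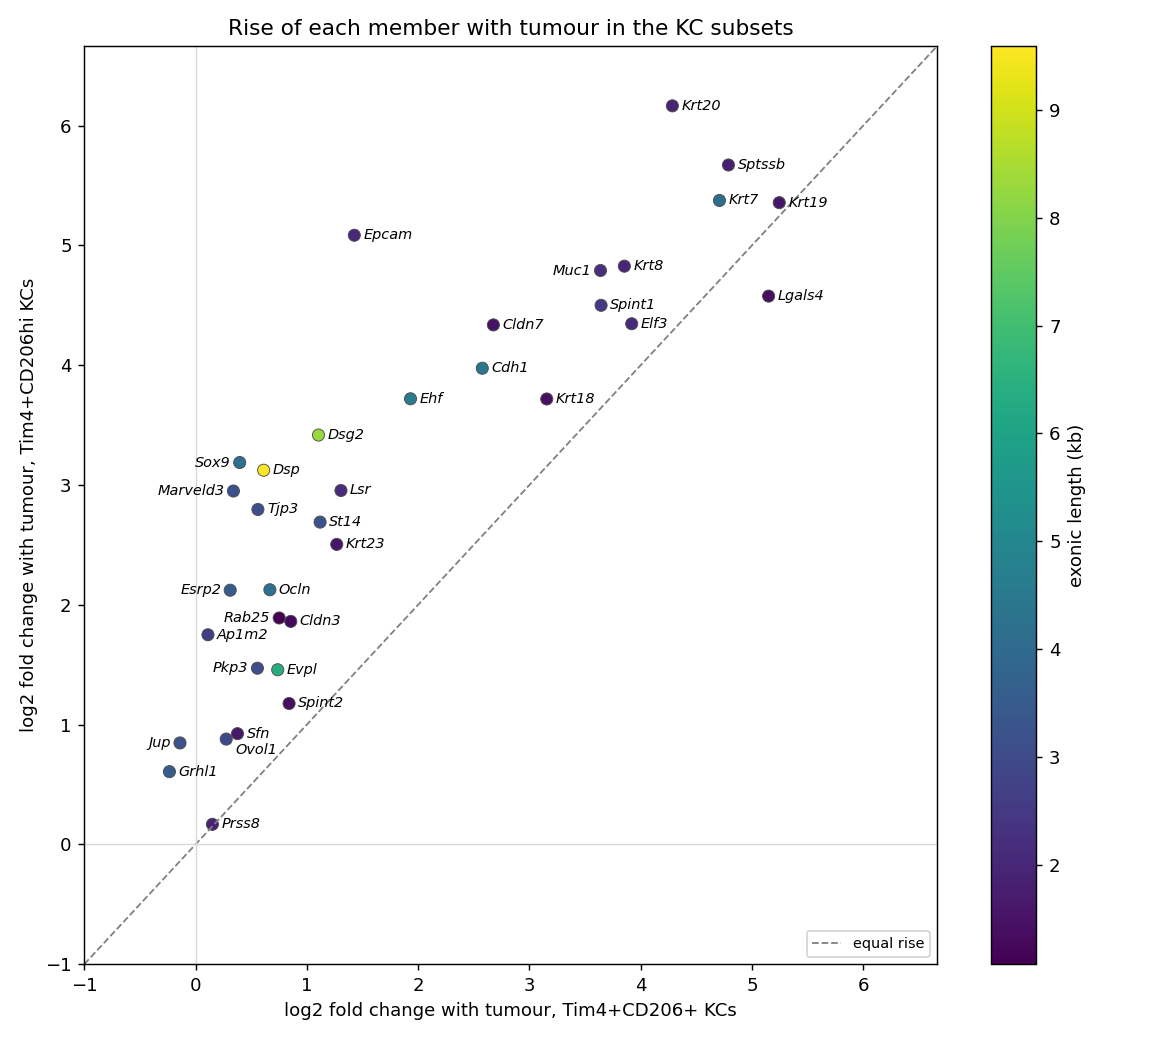
Log2 fold change with tumour of each member tested in both subsets, Tim4+CD206+ on the horizontal and Tim4+CD206hi on the vertical axis, coloured by exonic length. Of 35 members, 34 lie above the line of equal rise, and Lgals4 lies below it. The share of all genes above that line was not counted. Marveld3 and Ovol1, among the 34, passed the filter in Tim4+CD206hi KCs through the tumour-bearing samples alone.

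In the Id3 table, from tumour-free mice, the members were low and flat apart from a few. They summed to 0.0132, 0.0140 and 0.0128% of all genes in Id3f/f and 0.0180 and 0.0180% in Clec4fCreId3f/f KCs, a ratio of mean shares of 1.35 that was 1.05 without Jup, while the ratio of their summed linear values without Jup was 0.968, so that the direction without Jup depends on the scaling. Jup made up 65.4 to 75.7% of these sums. Of the 35 members with reads, 17 had all 5 samples within 0.05 of the lowest, 24 spanned less than 0.1 and 34 less than 0.5 log2 units. The mean in Id3f/f KCs reached 5 for 8 members, namely Krt8, Krt18, Tjp3, Lsr, Jup, Grhl1, Esrp2 and Spint2.

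Of these, Krt8 read 7.24, 7.38 and 7.28 in Id3f/f and 7.38 and 7.51 in Clec4fCreId3f/f KCs, and Krt18 7.40, 7.56 and 7.55 and 7.25 and 7.44. Spint2 read 8.18, 7.92 and 8.03 and 7.82 and 7.92, and Lsr 6.45, 6.40 and 6.57 and 6.37 and 6.43. The groups of Krt8, Krt18 and Lsr overlapped, while the deleted samples of Spint2 lay just below the Id3f/f samples. Krt19, so high with tumour, read 4.27, 4.11 and 4.08 and 4.08 and 4.13, with 3 samples within 0.05 of its lowest value. Lgals4 read 4.70, 4.69 and 4.69 and 4.68 and 4.71, within 0.05 of its lowest value in all 5 samples. Epcam read 4.08, 4.01 and 4.12 and 4.03 and 4.03, Muc1 1.09, 1.09 and 1.09 and 1.12 and 1.09, and Cdh1 2.85, 2.85 and 2.89 and 2.85 and 2.90, flat in all 5 samples.

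Of 17 members tested in the Id3 table, Jup was higher in Clec4fCreId3f/f KCs and none was lower by limma, nor at an unadjusted p under 0.05, beside 3.08% of 12833 genes called higher. The median log2 fold change was -0.02 over the members and 0.00 over all genes. Jup read 11.06, 11.18 and 10.94 in Id3f/f and 11.55 and 11.50 in Clec4fCreId3f/f KCs, with both deleted samples above all others (log2 fold change 0.47 ± 0.10 (SE), adjusted p 0.0240). Its call was lost without Id3f/f replicate 1 (adjusted p 0.0804). Leaving out a deleted sample leaves 1, which is then assumed to vary like the Id3f/f samples, and the genes called fell from 827 to 17 or 19 of 12833, so the loss of Jup there (adjusted p 0.302 and 0.206) says little of Jup. Tjp3 read 5.38, 5.40 and 5.53 and 5.59 and 5.61 (difference 0.16 ± 0.06 (SE), adjusted p 0.130), again with both deleted samples highest, and was called without Id3f/f replicate 3 (adjusted p 0.0188). Of the list of other adherens junction and desmosome genes, 2 of 8 tested were called higher and 0 lower, which were Ctnnd1 (log2 fold change 0.65 ± 0.08 (SE), adjusted p 0.00415) and Ctnna1 (log2 fold change 0.37 ± 0.09 (SE), adjusted p 0.0429). Of the hemidesmosome and basal adhesion genes, 2 of 4 tested were called higher, Col17a1 (log2 fold change 0.10 ± 0.02 (SE), adjusted p 0.0388) and Dst (log2 fold change 0.43 ± 0.09 (SE), adjusted p 0.0290), and limma called no gene of the other 4 pathway lists.

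Outside the list, of 13 keratins of stratified and other epithelia, 2 of 4 tested in Tim4+CD206+ and 1 of 4 in Tim4+CD206hi KCs rose. Krt14, a basal-cell keratin, read 4.68, 4.66 and 5.49 against 7.77, 7.0 and 7.35 in Tim4+CD206+ KCs (log2 fold change 2.43 ± 0.32 (SE), adjusted p 0.00472) and 3.74, 4.12 and 4.72 against 7.27, 7.27 and 7.43 in Tim4+CD206hi KCs (log2 fold change 3.13 ± 0.28 (SE), adjusted p 0.000642), with tumour-bearing samples above all others. Krt4 was called in Tim4+CD206+ KCs (log2 fold change 0.65 ± 0.14 (SE), adjusted p 0.0399; 0.0574 without tumour-free replicate 2), from near-identical tumour-free values. Krt10, a keratin of the epidermis, was not called (difference 0.17 ± 0.23 (SE), adjusted p 0.787, and difference 0.20 ± 0.27 (SE), adjusted p 0.686 in Tim4+CD206hi KCs), nor was Krt222 in Tim4+CD206hi KCs (difference -0.55 ± 0.37 (SE), adjusted p 0.414). Krt5, Krt6a and Krt6b stood at 0 in every sample of both tumour tables.

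Of 22 other tight junction genes, Cldn25 was not in the tables, and 3 of 16 tested in Tim4+CD206+ and 7 of 19 in Tim4+CD206hi KCs rose. Cldn18, the claudin of stomach and lung, read 4.28, 4.31 and 4.32 against 5.87, 5.47 and 6.25 in Tim4+CD206+ KCs (log2 fold change 1.56 ± 0.23 (SE), adjusted p 0.00832) and 3.77, 3.77 and 3.81 against 8.43, 8.32 and 8.97 in Tim4+CD206hi KCs (log2 fold change 4.79 ± 0.23 (SE), adjusted p 6.36e-05). Its tumour-free values were near-identical in both subsets and lay below all tumour-bearing values. Cldn6, a claudin of embryonic epithelia, rose in both subsets (log2 fold change 1.80 ± 0.18 (SE), adjusted p 0.00111, and log2 fold change 3.09 ± 0.24 (SE), adjusted p 0.000324 in Tim4+CD206hi KCs), and Cldn23 was called in Tim4+CD206hi KCs (log2 fold change 3.16 ± 0.18 (SE), adjusted p 9.68e-05). Cldn2, a pore-forming claudin, was called in Tim4+CD206hi KCs (log2 fold change 3.14 ± 0.43 (SE), adjusted p 0.00510) and not in Tim4+CD206+ KCs (difference 1.55 ± 0.36 (SE), adjusted p 0.0580), where it was called without tumour-free replicate 2 (adjusted p 0.0487).

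Of 15 other adherens junction and desmosome genes, 2 of 12 tested in Tim4+CD206+ and 5 of 12 in Tim4+CD206hi KCs rose. Cdh17, the cadherin of gut epithelium, read 4.49, 4.46 and 4.56 against 8.64, 8.01 and 7.93 in Tim4+CD206+ KCs (log2 fold change 3.69 ± 0.26 (SE), adjusted p 0.000243) and 4.71, 4.87 and 5.90 against 10.36, 10.51 and 10.70 in Tim4+CD206hi KCs (log2 fold change 5.37 ± 0.34 (SE), adjusted p 0.000133). Dsc2, the desmosomal partner of Dsg2, rose in both subsets (log2 fold change 1.82 ± 0.31 (SE), adjusted p 0.0174, and log2 fold change 4.10 ± 0.23 (SE), adjusted p 9.28e-05 in Tim4+CD206hi KCs). Both genes were separated by tumour in each subset. Perp, a tetraspan protein of desmosomes, was called in Tim4+CD206hi KCs (log2 fold change 3.77 ± 0.49 (SE), adjusted p 0.00385) and not in Tim4+CD206+ KCs (difference 1.16 ± 0.40 (SE), adjusted p 0.182), where its groups overlapped.

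Of 17 other epithelial transcription factors, 2 of 7 tested in Tim4+CD206+ and 11 of 13 in Tim4+CD206hi KCs rose, of which Pdx1 and 2 others passed the filter in Tim4+CD206hi KCs through the tumour-bearing samples alone, and 8 of 9 rose there without such genes. Spdef, an ETS factor of secretory cells, rose in both subsets (log2 fold change 2.06 ± 0.18 (SE), adjusted p 0.000646, and log2 fold change 3.43 ± 0.24 (SE), adjusted p 0.000210 in Tim4+CD206hi KCs). Pdx1, the master factor of pancreas, read 3.90, 3.90 and 3.90 against 4.80, 5.22 and 4.52 in Tim4+CD206+ KCs (log2 fold change 0.95 ± 0.20 (SE), adjusted p 0.0411) and 3.32, 3.32 and 3.35 against 6.51, 6.56 and 6.79 in Tim4+CD206hi KCs (log2 fold change 3.29 ± 0.20 (SE), adjusted p 0.000264 with no filter), and its tumour-free samples were level in both. The call of Pdx1 in Tim4+CD206+ KCs was lost without tumour-free replicate 2 (adjusted p 0.0541). Klf5 was called in Tim4+CD206hi KCs (log2 fold change 3.67 ± 0.25 (SE), adjusted p 0.000190) and did not pass the filter in Tim4+CD206+ KCs.

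Of 9 hemidesmosome and basal adhesion genes, 3 of 8 tested in Tim4+CD206+ and 5 of 9 in Tim4+CD206hi KCs rose. Lamb3, a laminin chain of epithelial basement membrane, rose in both subsets (log2 fold change 2.27 ± 0.23 (SE), adjusted p 0.00123, and log2 fold change 4.17 ± 0.29 (SE), adjusted p 0.000189 in Tim4+CD206hi KCs), as did its integrin receptor subunit Itga3 (log2 fold change 1.74 ± 0.33 (SE), adjusted p 0.0290, and log2 fold change 3.23 ± 0.28 (SE), adjusted p 0.000541 in Tim4+CD206hi KCs). Itga6 was not called in Tim4+CD206+ KCs (difference 1.72 ± 0.44 (SE), adjusted p 0.0819). In none of these pathway lists was a gene called lower by limma in a tumour comparison, and at an unadjusted p under 0.05 there were 2 lower adherens junction genes in Tim4+CD206+ KCs and 1 tight junction gene in Tim4+CD206hi KCs, beside those of the next list. Without tumour-free replicate 2, Ctnnd1 was called lower in Tim4+CD206+ KCs (log2 fold change -0.80, adjusted p 0.0114). The higher calls without that sample, in Tim4+CD206+ and Tim4+CD206hi KCs in turn, were 1 and 1 other keratins, 3 and 9 tight junction genes, 2 and 6 adherens junction and desmosome genes, 1 and 12 transcription factors and 2 and 5 hemidesmosome genes. Those of Tim4+CD206hi KCs include Cdh3 and the factors Grhl3, Ovol2, Pdx1 and Cdx2, which passed the filter through the tumour-bearing samples alone.

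The list of epithelial-mesenchymal transition holds 8 genes, of them 7 transcription factors and the cadherin Cdh2. Of these, 0 of 2 tested were called in Tim4+CD206+ and 0 of 6 in Tim4+CD206hi KCs by limma, with 0 and 1 higher and 0 and 1 lower at an unadjusted p under 0.05. Zeb1 read 11.49, 10.89 and 11.82 against 10.09, 10.47 and 10.49 in Tim4+CD206hi KCs, with every tumour-bearing sample below every tumour-free sample (difference -1.05 ± 0.27 (SE), adjusted p 0.0629), and it was called lower without tumour-free replicate 2 (log2 fold change -1.31, adjusted p 0.00519). In Tim4+CD206+ KCs the groups of Zeb1 overlapped (difference -0.24 ± 0.27 (SE), adjusted p 0.733), as did those of Zeb2 (difference 0.07 ± 0.34 (SE), adjusted p 0.956). In Tim4+CD206hi KCs neither Cdh2, which encodes N-cadherin (difference 0.82 ± 0.24 (SE), adjusted p 0.101), nor Snai2 (difference -0.36 ± 0.39 (SE), adjusted p 0.610) was called.

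Markers of other cell types were measured beside the members, as summed share of all genes in tumour-free against tumour-bearing samples. Their part in the result was not tested. The marker lists, like the members, were chosen with earlier results of these data known, so their counts of called genes are no independent test. Of 12 genes of gastric-type secretory epithelium, which ductal pancreatic tumours often express, Lypd8l was not in the tables, and all 10 tested rose in Tim4+CD206+ KCs and all 11 in Tim4+CD206hi KCs, 1 of which passed the filter through the tumour-bearing samples alone. Their sums were 0.000820, 0.000920 and 0.000893 against 0.0198, 0.0139 and 0.0196% in Tim4+CD206+ KCs and 0.000915, 0.000993 and 0.00103 against 0.0376, 0.0333 and 0.0413% in Tim4+CD206hi KCs, so that every tumour-bearing sample was above every tumour-free sample. Tff1, a trefoil peptide and the most abundant of them in most tumour-bearing samples, read 5.18, 5.20 and 5.13 against 11.26, 10.35 and 11.06 in Tim4+CD206+ KCs (log2 fold change 5.72 ± 0.28 (SE), adjusted p 4.27e-05) and 4.70, 4.86 and 4.83 against 11.39, 10.30 and 11.19 in Tim4+CD206hi KCs (log2 fold change 6.16 ± 0.31 (SE), adjusted p 6.65e-05). Gkn1, a stomach peptide, rose as well (log2 fold change 5.37 ± 0.24 (SE), adjusted p 4.27e-05, and log2 fold change 6.21 ± 0.23 (SE), adjusted p 3.65e-05 in Tim4+CD206hi KCs), from tumour-free values at the lowest of the gene. Of the 12, 8 in the Id3 table were absent or at 0 in every sample.

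Bile duct cells share Krt7, Krt19, Epcam and Sox9 with the members. Of 10 other cholangiocyte genes, 0 higher and 0 lower of 5 tested were called in Tim4+CD206+ KCs by limma, with 2 higher and 0 lower at an unadjusted p under 0.05, and 5 higher and 1 lower of 8 tested in Tim4+CD206hi KCs. Their sums were 0.0154, 0.00166 and 0.00882 against 0.00377, 0.00247 and 0.00506% in Tim4+CD206+ KCs and 0.185, 0.134 and 0.157 against 0.0773, 0.0867 and 0.0825% in Tim4+CD206hi KCs, and Aqp1, a water channel that endothelium also expresses, made up most of each. Without Aqp1 the direction turned, with summed linear values of 182, 135 and 145 against 308, 186 and 230 in Tim4+CD206+ KCs and 152, 175 and 198 against 584, 809 and 484 in Tim4+CD206hi KCs. Aqp1 fell in Tim4+CD206hi KCs (log2 fold change -1.03 ± 0.17 (SE), adjusted p 0.0122), whereas Cftr, the chloride channel of ducts, rose there (log2 fold change 3.34 ± 0.51 (SE), adjusted p 0.00834). Slc10a2, the bile acid transporter of cholangiocytes, stood at 0 in all Tim4+CD206+ and Id3 samples, and Cftr stood at 0 in all Id3 samples.

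Of 7 mesothelial genes, Muc16 was not in the tables, and 1 of 3 tested in Tim4+CD206+ and 1 of 4 in Tim4+CD206hi KCs rose. The gene called was Msln in both, which pancreatic tumours also express (log2 fold change 3.64 ± 0.46 (SE), adjusted p 0.00388, and log2 fold change 4.42 ± 0.53 (SE), adjusted p 0.00275 in Tim4+CD206hi KCs). Their sums, mostly Msln, were 0.000186, 0.000306 and 0.000553 against 0.00336, 0.00279 and 0.00297% in Tim4+CD206+ KCs and 0.000235, 0.00105 and 0.000541 against 0.00763, 0.00606 and 0.00660% in Tim4+CD206hi KCs. Hepatocyte genes went the other way. Of 12, limma called 0 higher and 8 lower of 12 tested in Tim4+CD206+ KCs and 0 higher and 7 lower of 12 tested in Tim4+CD206hi KCs. Their sums were 0.0864, 0.0750 and 0.107 against 0.0420, 0.0321 and 0.0452% in Tim4+CD206+ KCs and 0.0796, 0.0731 and 0.113 against 0.0376, 0.0316 and 0.0383% in Tim4+CD206hi KCs, with Alb or Hpx the most abundant. Alb, the main plasma protein, read 12.85, 12.80 and 13.08 against 10.48, 10.16 and 11.23 in Tim4+CD206+ KCs (log2 fold change -2.29 ± 0.27 (SE), adjusted p 0.00281) and 13.24, 12.88 and 13.98 against 11.42, 10.90 and 11.61 in Tim4+CD206hi KCs (log2 fold change -2.06 ± 0.32 (SE), adjusted p 0.00891). Every tumour-bearing sample was below every tumour-free sample for Alb in both subsets. The part of hepatocytes in the level of Krt8 and Krt18, which they also express, was not tested.

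Of 8 endothelial genes, limma called 0 higher and 0 lower of 8 tested in Tim4+CD206+ KCs (3 lower at an unadjusted p under 0.05) and 0 higher and 2 lower of 8 tested in Tim4+CD206hi KCs. Their sums were 0.0720, 0.0478 and 0.0622 against 0.0357, 0.0368 and 0.0469% in Tim4+CD206+ KCs and 0.706, 0.436 and 0.606 against 0.290, 0.340 and 0.366% in Tim4+CD206hi KCs, with Stab2 the most abundant in the former and Clec4g in the latter. Clec4g, a lectin of sinusoidal endothelium, fell in Tim4+CD206hi KCs (log2 fold change -0.90 ± 0.18 (SE), adjusted p 0.0240). Of 8 stellate cell and fibroblast genes, limma called 0 higher and 0 lower of 7 tested in Tim4+CD206+ KCs (1 lower at an unadjusted p under 0.05) and 0 higher and 2 lower of 8 tested in Tim4+CD206hi KCs, where Dcn, a matrix proteoglycan, fell (log2 fold change -1.67 ± 0.23 (SE), adjusted p 0.00493). Their sums were 0.00169, 0.000965 and 0.00156 against 0.00152, 0.000978 and 0.00150% in Tim4+CD206+ KCs and 0.00447, 0.00319 and 0.00442 against 0.00184, 0.00376 and 0.00249% in Tim4+CD206hi KCs, with Col3a1 or Dcn the most abundant in most samples. All 8 genes of each list had reads in both tumour tables.

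Of 7 monocyte genes, limma called 3 higher and 0 lower of 7 tested in Tim4+CD206+ KCs and 3 higher and 0 lower of 7 tested in Tim4+CD206hi KCs. Their sums were 0.0752, 0.0353 and 0.0626 against 0.110, 0.104 and 0.109% in Tim4+CD206+ KCs and 0.0576, 0.0468 and 0.0622 against 0.101, 0.0945 and 0.0989% in Tim4+CD206hi KCs, with Plac8 the most abundant in most samples. Chil3, a chitinase-like protein of monocytes, rose in both subsets (log2 fold change 3.10 ± 0.29 (SE), adjusted p 0.000869, and log2 fold change 2.68 ± 0.47 (SE), adjusted p 0.0158 in Tim4+CD206hi KCs). Of 7 neutrophil genes, limma called 5 higher and 0 lower of 7 tested in Tim4+CD206+ KCs and 4 higher and 0 lower of 7 tested in Tim4+CD206hi KCs. Their sums were 0.0378, 0.0344 and 0.0405 against 0.102, 0.105 and 0.0971% in Tim4+CD206+ KCs and 0.0266, 0.0236 and 0.0318 against 0.0801, 0.0811 and 0.0545% in Tim4+CD206hi KCs, with S100a9, Csf3r or Mmp9 the most abundant. S100a9, an alarmin of neutrophils, rose in both subsets (log2 fold change 2.34 ± 0.30 (SE), adjusted p 0.00430, and log2 fold change 2.14 ± 0.48 (SE), adjusted p 0.0425 in Tim4+CD206hi KCs). Some monocyte and neutrophil genes were thus higher with tumour, while Plac8, Csf3r and Mmp9 were called in neither subset, and none of either list stood at 0 in a tumour table.

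Of 7 T or NK cell genes, Trac was not in the tables, and limma called 0 higher and 0 lower of 6 tested in Tim4+CD206+ KCs and 0 higher and 0 lower of 6 tested in Tim4+CD206hi KCs, with 2 and 4 lower at an unadjusted p under 0.05. Their sums were 0.00826, 0.00514 and 0.00682 against 0.00462, 0.00428 and 0.00501% in Tim4+CD206+ KCs and 0.00496, 0.00508 and 0.00497 against 0.00325, 0.00359 and 0.00341% in Tim4+CD206hi KCs, with Nkg7 the most abundant. Of 6 B cell genes, Ighm was not in the tables, and limma called 0 higher and 3 lower of 4 tested in Tim4+CD206+ KCs and 0 higher and 2 lower of 5 tested in Tim4+CD206hi KCs. Their sums were 0.0224, 0.0255 and 0.0239 against 0.0117, 0.0130 and 0.0136% in Tim4+CD206+ KCs and 0.0103, 0.0118 and 0.0114 against 0.00597, 0.00623 and 0.00582% in Tim4+CD206hi KCs, with Cd79b the most abundant, and Cd79a of the B cell receptor fell in both subsets (log2 fold change -1.18 ± 0.17 (SE), adjusted p 0.00687, and log2 fold change -1.08 ± 0.18 (SE), adjusted p 0.0115 in Tim4+CD206hi KCs). The sort had gated against T, NK and B cells and neutrophils.

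Of the 10 KC genes, limma called 0 higher and 3 lower of 10 tested in Tim4+CD206+ KCs, namely Timd4, Csf1r and Adgre1, and 0 higher and 0 lower of 10 tested in Tim4+CD206hi KCs, with 3 lower and 1 higher at an unadjusted p under 0.05. Their sums were 6.30, 5.14 and 5.07 against 4.02, 3.73 and 3.99% in Tim4+CD206+ KCs and 3.00, 2.57 and 3.89 against 2.82, 2.52 and 2.69% in Tim4+CD206hi KCs, with Clec4f or Cd5l the most abundant. Timd4, which encodes the sorted antigen, fell in Tim4+CD206+ KCs (log2 fold change -0.75 ± 0.16 (SE), adjusted p 0.0463), and Adgre1, which encodes F4/80, did so too (log2 fold change -0.93 ± 0.18 (SE), adjusted p 0.0280). In Tim4+CD206hi KCs the difference of Timd4 was not called (difference -0.64 ± 0.21 (SE), adjusted p 0.149), but it was called lower without tumour-free replicate 2 (log2 fold change -0.77, adjusted p 0.0394). In Tim4+CD206+ KCs Clec4f was not called (difference -0.79 ± 0.21 (SE), adjusted p 0.0925) and was called lower without that sample (adjusted p 0.0253).

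Without tumour-free replicate 2 more genes were called lower with tumour, 4.5% of all genes in Tim4+CD206+ and 7.38% in Tim4+CD206hi KCs, and more marker genes with them. These were, in Tim4+CD206+ and Tim4+CD206hi KCs in turn, 6 and 1 of 10 KC genes, 10 and 9 of 12 hepatocyte genes, 4 and 7 of 8 endothelial genes, 1 and 3 stellate cell and fibroblast genes, 1 and 3 T or NK cell genes, 3 and 4 B cell genes and 1 and 1 cholangiocyte gene, which was Aqp1 in both. The calls of the gastric-type, mesothelial and monocyte lists kept their number, while 5 neutrophil and 6 cholangiocyte genes were higher in Tim4+CD206hi KCs.

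In the Id3 table the gastric-type genes summed to 0.000126, 0.000126 and 0.000126% in Id3f/f and 0.000135 and 0.000138% in Clec4fCreId3f/f KCs, the cholangiocyte genes to 0.00516, 0.00589 and 0.00767% and 0.00651 and 0.00637%, and the hepatocyte genes to 0.122, 0.104 and 0.141% and 0.141 and 0.170%. Among the gastric-type, cholangiocyte and hepatocyte lists, hepatocyte genes thus had the largest sum and gastric-type genes the smallest. Only 2 gastric-type genes and 1 cholangiocyte gene were tested there, and limma called none. Of the other cell lists, limma called higher Tat and Pck1 of 12 hepatocyte genes, Pecam1 of 8 endothelial genes and Cd5l, Csf1r and Adgre1 of 10 KC genes. It called lower Clec4g of the endothelial genes, Plac8 of 5 monocyte genes, Mmp9 of 6 neutrophil genes, and Clec4f and C1qa of the KC genes, beside 3.37% of all genes called lower. No gene of the stellate cell, T or NK cell and B cell lists was called, and no mesothelial gene was tested.

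Some members lie together on the genome (GRCm38). Krt8 and Krt18 are 23.7 kb apart on chromosome 15, with Krt7 566.4 kb from Krt8. On chromosome 11, Krt20 lies 39.8 kb from Krt23, Krt23 647.7 kb from Krt19, and Krt19 220.3 kb from Jup. Krt19 and Jup are thus next to each other among the members, though not necessarily among all genes. Their patterns differed, with Krt19 separated by tumour and Jup high in every sample. Cldn3 and Cldn4 are 39.3 kb apart on chromosome 5, Lgals4 and Spint2 414.6 kb on chromosome 7, Esrp2 and Cdh1 466.4 kb on chromosome 8, and Rab25 and Muc1 680.8 kb on chromosome 3.

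Promoters in RefSeq (GRCm38.p6), read as the 250 bases before the gene start, were matched for 25 of 40 members, in 29 windows. The letters CACCTG, an E-box of the kind that Zeb and Snai repressors bind, were found on either strand in 18 of 29 windows and 17 of 25 genes, against 17.2% of 32851 windows of all genes. The ETS core AGGAAG was found in 11 of 29 windows and 10 of 25 genes, against 29.5% of all windows. The grainyhead-like site AACCGGTT was found in 0 of 29, against 0.116%. The motifs share no bases by overlap. A match is no evidence of binding. The promoters of members that rose together in both subsets are shown for the keratin pair Krt8 and Krt18, for Muc1 and Epcam of the cell surface and for the ETS factor Elf3, 5′ to 3′ on the strand of the gene, with CACCTG and AGGAAG on either strand in capitals. They lie at chr15:102004343-102004592 (minus strand, Krt8), chr15:102027966-102028215 (plus strand, Krt18), chr3:89228806-89229055 (plus strand, Muc1), chr17:87635729-87635978 (plus strand, Epcam) and chr1:135258473-135258722 (minus strand, Elf3).
Krt8: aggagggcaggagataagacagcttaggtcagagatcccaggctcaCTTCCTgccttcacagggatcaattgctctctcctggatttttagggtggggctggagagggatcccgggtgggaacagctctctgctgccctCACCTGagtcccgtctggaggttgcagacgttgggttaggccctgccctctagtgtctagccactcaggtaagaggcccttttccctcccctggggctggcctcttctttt
Krt18: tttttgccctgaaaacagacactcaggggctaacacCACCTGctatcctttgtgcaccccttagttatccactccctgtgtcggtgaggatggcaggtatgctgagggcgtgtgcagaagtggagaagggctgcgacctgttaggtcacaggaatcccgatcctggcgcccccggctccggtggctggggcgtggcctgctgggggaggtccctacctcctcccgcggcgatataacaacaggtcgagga
Muc1: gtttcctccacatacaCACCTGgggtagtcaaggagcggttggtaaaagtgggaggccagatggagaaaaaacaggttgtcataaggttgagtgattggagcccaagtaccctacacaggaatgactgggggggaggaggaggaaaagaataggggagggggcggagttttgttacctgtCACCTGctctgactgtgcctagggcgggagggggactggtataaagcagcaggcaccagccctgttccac
Epcam: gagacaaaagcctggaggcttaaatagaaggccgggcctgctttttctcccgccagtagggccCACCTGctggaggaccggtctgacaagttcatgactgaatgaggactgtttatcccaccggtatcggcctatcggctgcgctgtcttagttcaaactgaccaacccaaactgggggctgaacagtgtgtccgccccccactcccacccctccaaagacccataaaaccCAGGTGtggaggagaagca
Elf3: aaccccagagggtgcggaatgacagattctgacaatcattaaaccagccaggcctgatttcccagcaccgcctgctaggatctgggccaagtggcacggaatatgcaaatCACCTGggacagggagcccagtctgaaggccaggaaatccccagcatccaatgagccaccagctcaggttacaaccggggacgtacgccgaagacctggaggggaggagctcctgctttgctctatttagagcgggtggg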

How the data were processed

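RNA of sorted Kupffer cells (KCs) was measured in 17 samples of 3 tables. The deposited values are log2 values that the authors normalized within each table. The authors aligned reads with STAR 2.7.10a, counted them on genes with HTSeq and used DESeq2, and the deposited values look like that tool's regularized log, which was inferred from them. Columns are headed TPM. Constant genes were dropped, and genes with a value of at least log2(10) in 3 samples (2 in the Id3 table) were tested by limma's moderated test (limma 3.58.1, R 4.3.3), whose variance prior followed the mean. P-values were adjusted by Benjamini-Hochberg over all genes tested. Called means an adjusted p under 0.05. The procedure was tested on simulated data. Summed levels are sums of linear values. Exon lengths came from GENCODE M21 and promoter windows from RefSeq, and the bases after the start matched a transcript of the gene on the stated strand for 26 of 29 windows and none for 3; both are GRCm38, the mm10 build of the labels. Tables were handled with Python 3.11.15, pandas 2.3.3, numpy 2.4.6 and matplotlib 3.10.9.

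Samples of 1 replicate number were correlated after removal of group means: r was 0.35, 0.56 and 0.15 in Tim4+CD206+ KCs, where a replicate block was therefore run beside the test, -0.05, -0.13 and -0.05 in Tim4+CD206hi KCs, and -0.07 and -0.10 in the Id3 table. Counting depth is not given by the files, so precision rests on the replicates. The test was repeated on all varying genes, on genes with a mean of at least log2(50), and with no trend, a replicate block, median centring, quantile normalization, and leaving out each sample. All members were named, with every sample's value for keratins, surface genes, genes that fail a tumour test and others of interest, and from each pathway list genes among the 3 with the largest absolute log2 fold change in each subset, not all of them. Members and lists were chosen with earlier results of these data known.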

Additional observations from a re-analysis of the deposited data

How the results depend on the processing

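Of the members called, 12 of 17 in Tim4+CD206+ and 24 of 30 in Tim4+CD206hi Kupffer cells (KCs) kept their call under every alternative that tested them. Without each sample in turn the count of called members was 12 to 15 in Tim4+CD206+ (231 to 1022 of 13233 genes) and 24 to 34 in Tim4+CD206hi KCs (579 to 3634 of 14561 genes). In the Id3 table it was 0 to 2 (17 to 1850 of 12833 genes), where leaving out a deleted sample leaves 1 that is assumed to vary like the other group. With no filter, a stricter filter, no trend, median centring and quantile normalization it was 14, 13, 16, 15 and 15 in Tim4+CD206+ KCs, 28, 22, 30, 30 and 29 in Tim4+CD206hi KCs, and 1 each in the Id3 table, beside 344 to 472, 600 to 1182 and 477 to 1051 genes called. With the replicate block, 30 members were called in Tim4+CD206hi KCs, without Evpl, Ovol1 and Sfn and with Cldn3, Tjp3 and Ap1m2 (909 genes in all), and 2 in the Id3 table, where Tjp3 was added to Jup (2089 of 12833 genes). Over single members and alternatives, direction and call were kept in 369 cases in Tim4+CD206+, 396 in Tim4+CD206hi and 161 in Id3 samples. A call was lost in 32, 34 and 3 cases and gained in 2, 15 and 2.

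Direction turned for members that were not called, and the cause was not tested. In Tim4+CD206+ KCs the log2 fold change of Ap1m2 was -0.049 with quantile normalization. Over the samples left out in turn it ran from -0.0489 (tumour-free replicate 2 left out) to 0.347, and that of Jup from -0.415 to 0.11, above 0 without tumour-free replicate 2 or tumour-bearing replicate 1 (0.01). In Tim4+CD206hi KCs Prss8 had -0.25 with quantile normalization and ran from -0.25 to 0.436, below 0 without tumour-free replicate 2 (-0.0005) or tumour-bearing replicate 2. In the Id3 table median centring gave -0.0012 for Cldn3 and -0.0251 for Lgals4. Values there ran from -0.0866 to 0.0108 for Krt19 and from -0.0559 to 0.0166 for Evpl, both above 0 without Id3f/f replicate 1, and from -0.0866 to 0.0398 for Pkp3, above 0 without that sample or deleted replicate 1. Grhl1 ran from -0.0019 (deleted replicate 1 left out) to 0.0607, and Lgals4 from -0.0118 to 0.0175, below 0 without Id3f/f replicate 2 or deleted replicate 2.

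The sum of the members without Jup, an alternative chosen after seeing the data, is given with the sums. Groups hold 2 or 3 samples, and the tables hold no read counts, so a member near its lowest value cannot be told from an absent transcript. The tables of the subsets were not joined.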
